A study of Mus musculus with 12 samples.

Results

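The comparison described here sets the small intestine of mice given AOS against that of mice given none, in animals whose labels name no busulfan. The labels write the treatment only as AOS, at 0 or 10, with no full name, unit, route or duration, and none is supplied here. The mice were of the ICR strain, an outbred laboratory stock, and the labels used here give neither sex nor age. Of the 12 libraries of the study, 6 belong to the comparison: 3 labelled AOS0 and 3 labelled AOS10, chosen by those labels alone. The other 6, labelled B+A0 and B+A10, came from mice given busulfan, an alkylating drug that cross-links DNA, with AOS at 0 or 10, and give a second place where the AOS difference can be read. Libraries were made from total RNA of small intestine, and each can mix several cell types. Genes of the muscle wall left few counts: of 13 smooth muscle genes looked for, 2 had enough to be tested. Among the others, Acta2 had 0, 4 and 4 counts in AOS0 and 0, 0 and 2 in AOS10 (replicates 1, 2 and 3). Which layers of the wall were taken is not stated here. Nothing states that replicates are different animals, and the p-values therefore cover the spread between samples only, which may be technical.

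The table held 16942 genes, of which 12329 had enough counts to be tested and 4613 did not. The 3 AOS0 libraries held 14758429, 14996020 and 13560246 counts, and the 3 AOS10 libraries 16329825, 15452461 and 15077101, so that every AOS10 library was deeper. With all libraries thinned to the smallest, the number of genes called was 0. As it was 0 with the full counts too, thinning cannot show the part of depth, which was not tested. Between 12792 and 12889 genes had at least 5 counts in each of the 6 libraries. Markers of small intestinal epithelium were present: Alpi, the alkaline phosphatase of the enterocyte brush border, stood at 493, 626 and 639 CPM in AOS0 and 637, 581 and 650.1 CPM in AOS10, and Muc2, the mucin of goblet cells, at 1704, 1969 and 2209.8 and 1957, 1926 and 2345 CPM. CPM is the count scaled to libraries of equal size, and the values of a group are always given in the order of replicates 1, 2 and 3.

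Cells that sense foreign nucleic acid make interferons, which act on neighbouring cells through receptors coupled to the JAK kinases and a complex of transcription factors that includes STAT2 and IRF9. These switch on a set of interferon-stimulated genes, among them the OAS enzymes, which make an oligoadenylate messenger that activates an RNA-degrading enzyme, and the IFIT proteins, which bind foreign RNA. In the intestine the epithelium carries receptors for type I and type III interferons and keeps a low level of this program in the healthy state. The other gene groups that come up below belong to the work of the epithelium itself: uptake of lipid, synthesis of sterols and fatty acids, binding of zinc by metallothioneins, and hormone release by enteroendocrine cells.

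Many interferon-stimulated genes carry an interferon-stimulated response element near their start, whose core was searched here as GAAANNGAAA, 2 GAAA half-sites with 2 letters between them, on both strands. The 250 bases before the start site of 5 members of the interferon-stimulated list, which lead it or stand for its branches, and of Lgals9 are printed; matches to the core are in capitals, overlapping matches run together, and the sequences are from RefSeq on GRCm38.p6, 5′ to 3′ in the direction of the gene.
Oas1a: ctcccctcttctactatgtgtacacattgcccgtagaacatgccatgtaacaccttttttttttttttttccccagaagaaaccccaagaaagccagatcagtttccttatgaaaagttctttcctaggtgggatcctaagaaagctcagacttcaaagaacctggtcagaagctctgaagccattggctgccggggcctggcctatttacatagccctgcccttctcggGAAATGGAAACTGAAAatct
Oas1g: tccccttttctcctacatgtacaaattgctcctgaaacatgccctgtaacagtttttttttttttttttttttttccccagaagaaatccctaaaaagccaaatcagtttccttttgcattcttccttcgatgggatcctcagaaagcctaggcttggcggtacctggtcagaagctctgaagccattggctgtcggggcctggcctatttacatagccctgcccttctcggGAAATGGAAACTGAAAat
Oas3: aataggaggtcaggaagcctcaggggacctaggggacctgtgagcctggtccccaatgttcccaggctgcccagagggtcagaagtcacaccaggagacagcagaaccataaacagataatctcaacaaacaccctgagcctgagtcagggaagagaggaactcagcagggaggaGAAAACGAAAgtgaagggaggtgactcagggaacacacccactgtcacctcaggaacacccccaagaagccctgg
Isg15: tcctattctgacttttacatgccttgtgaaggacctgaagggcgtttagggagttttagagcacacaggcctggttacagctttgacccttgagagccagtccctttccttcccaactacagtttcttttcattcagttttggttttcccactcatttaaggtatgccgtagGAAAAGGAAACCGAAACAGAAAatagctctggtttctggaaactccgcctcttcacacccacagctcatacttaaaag
Ifit1: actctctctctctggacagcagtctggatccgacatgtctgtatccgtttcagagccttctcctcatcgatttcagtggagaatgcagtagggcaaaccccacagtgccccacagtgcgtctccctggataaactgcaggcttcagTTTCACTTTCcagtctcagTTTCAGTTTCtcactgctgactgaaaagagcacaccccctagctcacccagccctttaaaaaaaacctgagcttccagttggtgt
Lgals9: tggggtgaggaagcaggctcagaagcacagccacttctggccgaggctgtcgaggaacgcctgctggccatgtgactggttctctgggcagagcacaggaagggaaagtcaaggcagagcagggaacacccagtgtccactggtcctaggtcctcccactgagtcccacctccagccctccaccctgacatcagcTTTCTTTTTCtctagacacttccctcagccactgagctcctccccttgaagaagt
The windows lie at chr5:120907526-120907775 (minus strand), chr5:120887614-120887863 (minus), chr5:120777660-120777909 (minus), chr4:156200819-156201068 (minus), chr19:34640639-34640888 (plus) and chr11:78984925-78985174 (minus). Lgals9, a galectin, is not on the list and is shown because it had the smallest p among higher genes outside it. In Oas1a and Oas1g 2 overlapping matches begin 20 and 14, and 18 and 12, bases before the start. In Isg15 3 overlapping matches begin 78, 72 and 66 bases before it. Each window was taken from 1 annotated start. For Oas1a and Oas3 the gene's own span runs into the window, to 120907544 and 120777684, so that start is not the outermost. Of the 34 tested list members 25 had a promoter in the table, and 16 of them (64%) held a match, against 936 of the 27025 genes with a promoter (3.46%). Over all tested genes with a promoter, 321 of 9897 held one (3.24%). Among all tested genes that were higher in AOS10 without overlap of the groups, 56 of 1123 held one (4.99%), and among those lower 26 of 950 (2.74%). Of those 56, 12 are members of the interferon-stimulated list. A match says only that these letters are in the window.

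Across all genes, most differences between AOS10 and AOS0 were small in size, and no gene passed the threshold in the fit of all 12 libraries. Of 12329 genes tested with edgeR's quasi-likelihood test over all 12 libraries, 0 had an adjusted p under 0.05 (0%), and the smallest adjusted p was 0.119. At an unadjusted p under 0.05 there were 768 genes (6.23%), 395 higher (3.20%) and 373 lower (3.03%). The 3 values of each group did not overlap in 2549 genes (20.7%), of which 1357 were higher in AOS10 (11.0%) and 1192 lower (9.67%). The median log2 fold change was -0.0087 and the median size of a change, whatever its sign, 0.11. Only 38 genes were more than 2-fold higher and 47 more than 2-fold lower without overlap.

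The count of called genes differed between fits. Biological variation (the coefficient edgeR estimates) was 0.133 over all 12 libraries and 0.100 over these 6. The median SD of log2 CPM was 0.119 in AOS0 and 0.105 in AOS10, against 0.149 in B+A0 and 0.194 in B+A10. A fit of only the AOS0 and AOS10 libraries called 62 of 12109 genes (0.512%), 47 higher (0.388%) and 15 lower (0.124%). At an unadjusted p under 0.05 this edgeR fit had 1716 genes. DESeq2 over all libraries called 63 of 12329 (0.511%), 47 higher (0.381%) and 16 lower (0.130%). The 2 sets shared 35 genes, 56.5% of the first and 55.6% of the second. Without AOS10 replicate 3 the edgeR test called 13 genes (0.104%), 12 higher (0.0960%) and 1 lower (0.00800%). Oas1a, Oas1g, Oas3, Oasl2, Lgals3bp, Lgals9, Mt1, Mt2, Shisa5, Sp100 and Scd2 were called in each of these 3 fits. Of them only 5 (Oas1a, Oas1g, Oas3, Oasl2 and Scd2) were called in all 6 alternative fits that called any gene. In a principal component analysis of the 6 libraries, the first component (29.8% of the variance) held AOS0 between -16.7 and -12.4 and AOS10 between 12.5 and 19.5. The root-mean-square log2 distance between libraries of the 2 groups was 0.380 to 0.416, against 0.365 to 0.402 within AOS0 and 0.321 to 0.366 within AOS10.

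**Figure D1:**
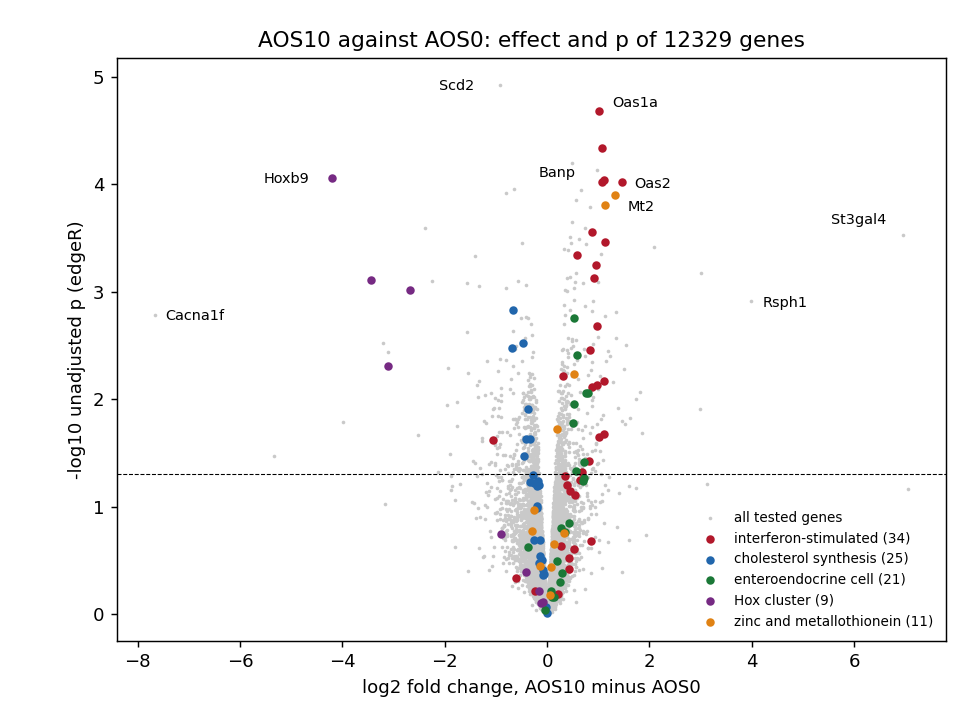
Each point is 1 of 12329 tested genes, placed by its log2 fold change (AOS10 minus AOS0) and the negative log10 of its unadjusted edgeR p; the dashed line marks the unadjusted threshold and colours mark 5 gene lists with their number of tested members. Red points (interferon-stimulated) fill the upper right, Scd2 has the smallest p and is lower in AOS10, and St3gal4, Rsph1 and Cacna1f lie far out, each with 1 library far from the others of its group.

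The interferon-stimulated genes stood higher in AOS10 as a group, although no member passed the threshold. Of 34 tested members of a list of 36, 31 had a log2 fold change above 0, with a median of 0.83, where 47.8% of all tested genes were above 0 and the median was -0.0087. In 23 members all 3 AOS10 libraries exceeded all 3 AOS0 libraries, as in 11.0% of all tested genes, and in 0 the reverse held, as in 9.67% of all. At an unadjusted p under 0.05 there were 20 members higher and 1 lower, against 3.20% and 3.03% of all tested genes. DESeq2 called 12 members, the fit of the AOS0 and AOS10 libraries 9, and the fit without AOS10 replicate 3 called 5, all higher. Relative to the AOS0 mean, the list's median level was 0.28, -0.31 and 0.014 on the log2 scale in AOS0 and 0.95, 0.89 and 0.51 in AOS10. The members moved up and down together between replicates: 24 of 34 were highest of all 6 libraries in AOS10 replicate 1, 25 were the lowest of their group in AOS10 replicate 3, and 32 the lowest of their group in AOS0 replicate 2. With any 1 of the 6 libraries left out, the median lay between 0.67 and 1.01.

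Oas1a had the smallest p of the list. It stood at 172, 126 and 150.2 CPM in AOS0 and 353, 314 and 242 CPM in AOS10, or 149 ± 23.3 CPM in AOS0 and 303 ± 56.1 CPM in AOS10 (SD, n = 3) (log2 fold change 1.02 with SE 0.16, edgeR adjusted p = 0.119). The groups were apart, with the lowest AOS10 library above the highest AOS0 library (gene ID 246730, GRCm38.p6 chromosome 5, 120896256 to 120907544). Its neighbour Oas1g, a near-identical copy with which it may share reads, was at 76.1, 60.9 and 69.3 CPM in AOS0 and 168, 152 and 113 CPM in AOS10 (log2 fold change 1.07 with SE 0.18). Oas3, which makes longer oligoadenylates, was at 106, 77.3 and 83.6 CPM in AOS0 and 226, 193 and 143 CPM in AOS10. Oas2 had the largest fold change of the list, at 47.4, 25.1 and 41.3 CPM in AOS0 and 136, 105 and 71.5 CPM in AOS10 (log2 fold change 1.45 with SE 0.26, edgeR adjusted p = 0.119). All 4 OAS enzymes thus had groups that did not overlap, and in each of them replicate 1 was the highest AOS10 library and replicate 3 the lowest. The OAS-like proteins followed: Oasl2, which carries ubiquitin-like domains, was at 302, 211 and 226 CPM in AOS0 and 603, 565 and 420.2 CPM in AOS10, and Oasl1, which restrains translation of Irf7 mRNA, had a log2 fold change of 0.92.

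**Figure D2:**
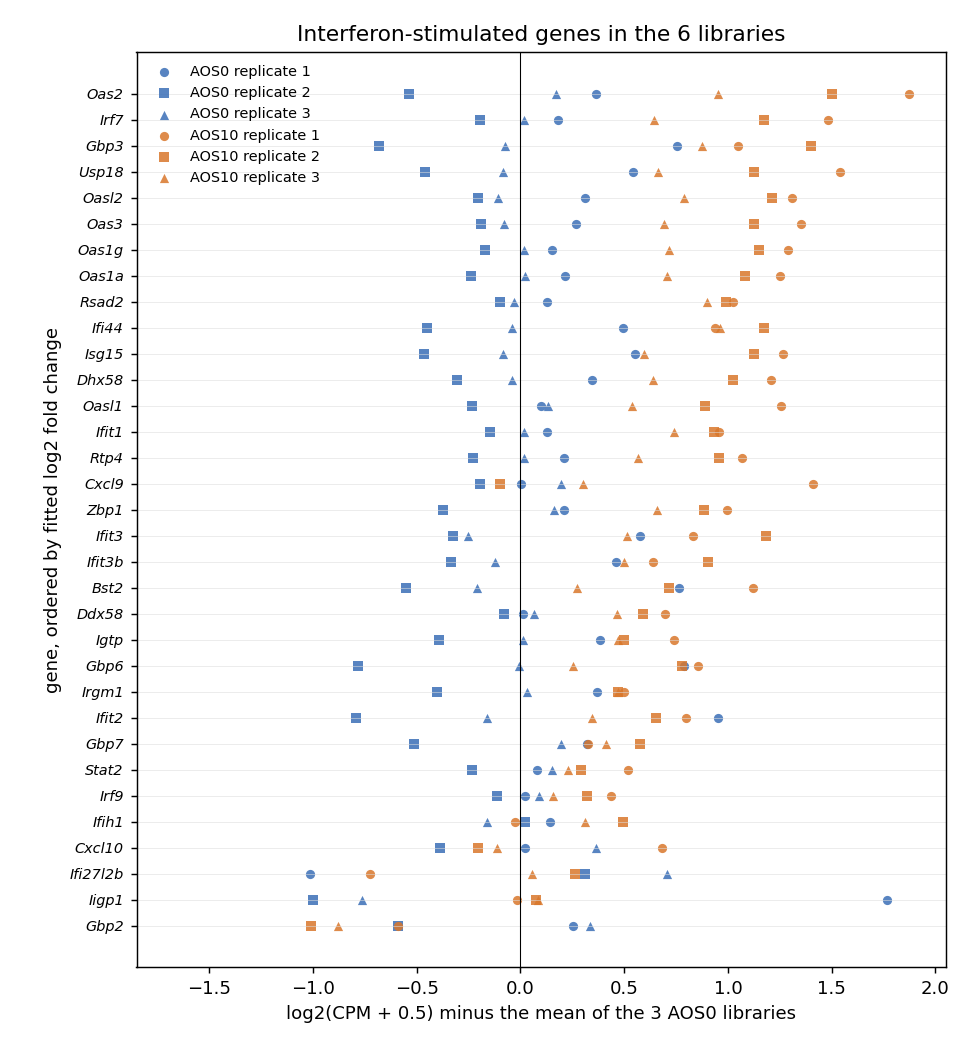
Each row is 1 of 33 tested interferon-stimulated genes, ordered by fitted fold change; points give log2(CPM + 0.5) of each library minus the mean of the 3 AOS0 libraries (blue, AOS0; orange, AOS10; circle, square and triangle for replicates 1, 2 and 3). From Oas2 down to Ddx58 the orange points lie mostly to the right of the blue ones, with AOS10 replicate 3 nearest to AOS0, while Gbp2 at the bottom lies to the left.

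Of the interferon genes looked for, 4 were in the data, and all had too few counts to be tested. In the 6 libraries Ifng had 0 to 3 counts, Ifnl2 0 to 2, and Ifnk and Ifnl3 0 or 1. Ifnb1, Ifne, Ifna1, Ifna2, Ifna4 and Ifna5, all of type I, were looked for and were not among the 16942 genes, so they could not be read. Other interferon genes were not analysed here. The receptor chains Ifnar1 and Ifnar2 of type I interferon had log2 fold changes of 0.017 and 0.090, and Ifnlr1, of type III interferon, of -0.26; the kinases Jak1 and Tyk2 had -0.078 and 0.21. Irf9, the DNA-binding part of the complex that reads the response element, was at 69.4, 63.1 and 72.9 CPM in AOS0 and 92.7, 85.5 and 76.1 CPM in AOS10, without overlap. Stat2 was also higher without overlap (0.34). The 12 receptor and signalling genes together had 8 above 0 and a median of 0.11, with 4 higher and 0 lower without overlap (11.0% and 9.67% of all tested genes). Both that list and the list of nucleic acid sensors were written after the data had been seen.

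Irf7, the factor that amplifies interferon production and is itself induced by it, was at 229, 177 and 205 CPM in AOS0 and 568, 457 and 317 CPM in AOS10 (log2 fold change 1.13 with SE 0.23, edgeR adjusted p = 0.163). Of 10 tested genes of nucleic acid sensing, 9 were above 0 with a median of 0.27, and 6 were higher without overlap (47.8% and 11.0% of all tested genes). Ddx58, Dhx58 and Zbp1 are also on the interferon-stimulated list, so these counts partly repeat those of that list. Ddx58, which encodes the RNA sensor RIG-I, was at 78.6, 73.7 and 81.6 CPM in AOS0 and 126, 117 and 108 CPM in AOS10, and Dhx58, its relative LGP2, at 39.4, 25.0 and 30.1 CPM in AOS0 and 72.3, 63.6 and 48.6 CPM in AOS10. Zbp1, a sensor of left-handed nucleic acid, had a log2 fold change of 0.83, and the ubiquitin ligase Trim25, which acts on RIG-I, of 0.45. Mavs, the adaptor of these sensors, was at 98.9, 106 and 111 CPM in AOS0 and 133, 122 and 128 CPM in AOS10. Ifih1, the sensor MDA5, overlapped between the groups (0.27).

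Among the effectors, Isg15, a ubiquitin-like modifier, was at 76.4, 37.5 and 49.0 CPM in AOS0 and 126, 114 and 78.9 CPM in AOS10, and Usp18, the protease that removes it and damps interferon signalling, at 34.8, 17.1 and 22.4 CPM in AOS0 and 70.1, 52.4 and 37.9 CPM in AOS10. Rsad2, the antiviral enzyme viperin, was at 7.96, 6.75 and 7.10 CPM in AOS0 and 15.3, 14.9 and 14.0 CPM in AOS10. In all 3 genes the groups did not overlap. Ifit1 was at 50.2, 41.5 and 46.5 CPM in AOS0 and 89.8, 88.3 and 77.2 CPM in AOS10 and Ifi44 at 69.6, 35.9 and 47.9 CPM in AOS0 and 94.9, 112 and 96.6 CPM in AOS10, again without overlap, while Ifit2 and Ifit3 overlapped between the groups. Ifit2, at 29.5, 8.46 and 13.4 CPM in AOS0 and 26.5, 23.9 and 19.2 CPM in AOS10, was high in AOS0 replicate 1. Rtp4, a chaperone of receptors, had a log2 fold change of 0.88.

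Members best known as interferon gamma targets were not uniform. The chemokines Cxcl9 and Cxcl10 were low, at 1.42, 1.18 and 1.70 CPM in AOS0 and 4.61, 1.30 and 1.87 CPM in AOS10 for Cxcl9 and 1.30, 0.852 and 1.78 CPM in AOS0 and 2.33, 1.04 and 1.14 CPM in AOS10 for Cxcl10. Gbp2, a guanylate-binding protein, was lower, at 3.82, 1.90 and 4.07 CPM in AOS0 and 1.90, 1.30 and 1.47 CPM in AOS10 (log2 fold change -1.06 with SE 0.41, unadjusted p = 0.0238), with groups that met at the same value. The GTPases Igtp and Irgm1 had log2 fold changes of 0.54 and 0.45 without overlap. Iigp1 rested on 1 library: it stood at 10.9, 1.18 and 1.48 CPM in AOS0 and 2.83, 3.05 and 3.07 CPM in AOS10, and its log2 fold change of -0.62 became 1.16 without AOS0 replicate 1.

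Interferon-induced genes outside the list were among those with the smallest p. Lgals9 was at 1372, 1312 and 1297 CPM in AOS0 and 1993, 1889 and 1695 CPM in AOS10 (log2 fold change 0.49 with SE 0.08, edgeR adjusted p = 0.119). Lgals3bp, a secreted galectin-binding protein, was at 665, 653 and 629.7 CPM in AOS0 and 1195, 1032 and 847 CPM in AOS10. Sp100, a nuclear body protein, was at 61.3, 55.3 and 48.6 CPM in AOS0 and 109, 110.3 and 75.7 CPM in AOS10, and Shisa5, a membrane protein linked to cell death, at 152, 139 and 156 CPM in AOS0 and 248, 219 and 191 CPM in AOS10. None of the 4 overlapped between the groups. Ifi27l2a, an interferon-inducible mitochondrial protein, had the largest fold change of these, at 19.1, 9.25 and 6.95 CPM in AOS0 and 87.1, 36.2 and 28.2 CPM in AOS10 (log2 fold change 2.10 with SE 0.44, edgeR adjusted p = 0.167). Its relative on the list, Ifi27l2b, was at 229.7, 576 and 759 CPM in AOS0 and 281, 558 and 484 CPM in AOS10, with overlap.

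Genes that present peptides on major histocompatibility complex (MHC) class I were modestly higher. Of 22 tested members 19 were above 0, with a median log2 fold change of 0.27 against -0.0087 over all genes, and 11 were higher and 0 lower without overlap (all tested genes: 47.8% above 0, 11.0% higher and 9.67% lower). At an unadjusted p under 0.05, 11 were higher (3.20% of all tested genes) and 1 was lower (H2-Q7, -0.79), but without AOS10 replicate 1 none was higher and without AOS0 replicate 2 there were 2. Tap1, a subunit of the transporter that carries peptides into the endoplasmic reticulum, was at 230.0, 181 and 219.8 CPM in AOS0 and 323, 248 and 274 CPM in AOS10. Tap2, its partner, was at 149.6, 119 and 129.8 CPM in AOS0 and 205, 160.4 and 171 CPM in AOS10. H2-D1, a classical heavy chain, was at 1892, 1384 and 1877 CPM in AOS0 and 2708, 2088 and 2174 CPM in AOS10 (log2 fold change 0.44 with SE 0.18). H2-T23 was at 105, 100.5 and 95.8 CPM in AOS0 and 229, 117 and 172 CPM in AOS10, without overlap. H2-T22 was at 24.3, 22.8 and 18.9 CPM in AOS0 and 52.3, 22.2 and 47.4 CPM in AOS10, and AOS10 replicate 2 lay within the AOS0 range. These non-classical chains and H2-D1 have close copies, so their reads are uncertain. B2m, the light chain, overlapped (0.19). The median was 0.21 without AOS10 replicate 1 and 0.22 without AOS0 replicate 2.

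**Figure D3:**
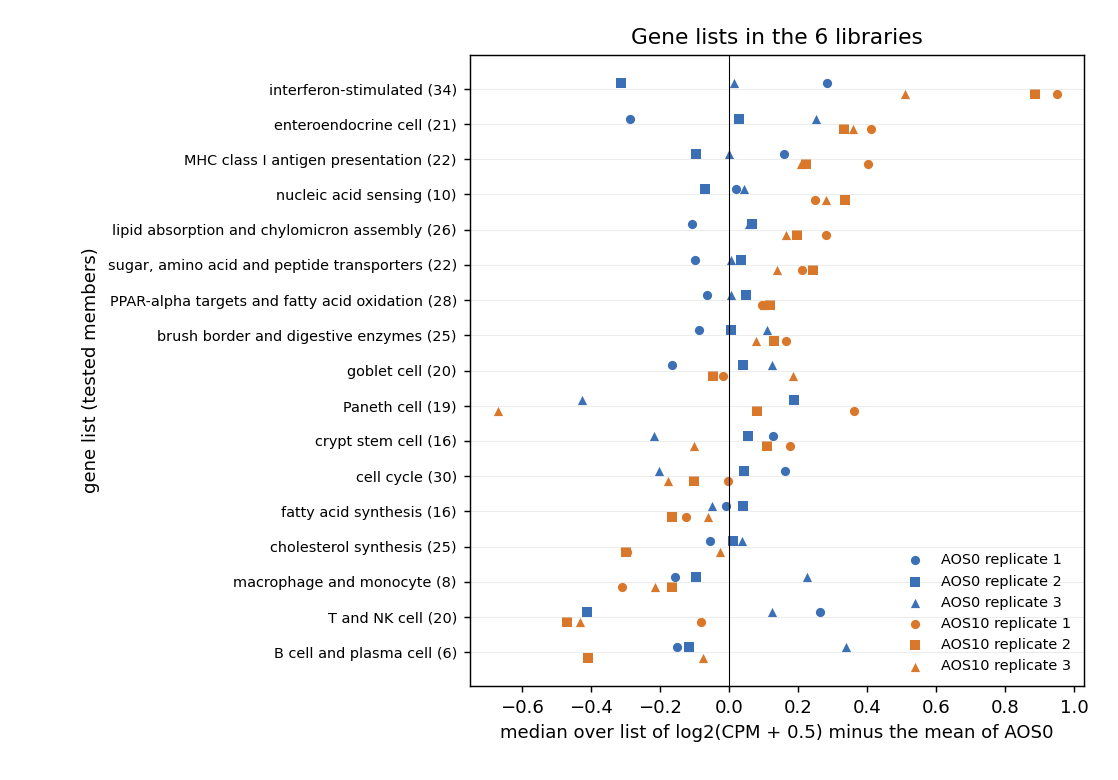
Each row is a gene list with its number of tested members; points give, per library, the median over the list of log2(CPM + 0.5) minus the AOS0 mean (blue, AOS0; orange, AOS10; shapes mark replicates). The interferon-stimulated list shows no overlap between the groups (0.51 to 0.95 in AOS10 against -0.31 to 0.28 in AOS0). The same holds for the enteroendocrine list (0.33 to 0.41 in AOS10 against -0.29 to 0.25 in AOS0). It also holds, with smaller differences, for nucleic acid sensing, MHC class I, lipid absorption, transporters and PPAR-alpha targets. Fatty acid synthesis and macrophage lists are narrowly apart on the lower side. The Paneth and goblet cell lists spread as far within a group as between groups.

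Metallothioneins, small proteins that bind zinc and copper, were higher in AOS10. Mt2 was at 122, 116 and 143 CPM in AOS0 and 298, 437 and 222 CPM in AOS10, or 127 ± 14.1 CPM in AOS0 and 319 ± 109 CPM in AOS10 (SD, n = 3) (log2 fold change 1.33 with SE 0.24, edgeR adjusted p = 0.119). Mt1 was at 184, 238 and 237 CPM in AOS0 and 471, 623 and 361 CPM in AOS10 (log2 fold change 1.14 with SE 0.22, edgeR adjusted p = 0.126). In both genes replicate 2 was the highest AOS10 library, in contrast to the OAS genes, where it was replicate 1. Mtf1, the zinc-sensing factor that drives them, was at 51.9, 50.4 and 50.9 CPM in AOS0 and 56.9, 56.6 and 62.7 CPM in AOS10, and Slc30a2, a transporter that moves zinc into vesicles, at 39.6, 32.7 and 41.9 CPM in AOS0 and 52.6, 56.4 and 54.8 CPM in AOS10, each without overlap. Zinc carriers were not uniform. Of 11 tested genes of the list 8 were above 0 (median 0.14), 4 were higher without overlap and 2 lower, the importer Slc39a8 (-0.30) and the zinc exporter Slc30a4 (-0.26). Over all tested genes 47.8% were above 0, 11.0% were higher without overlap and 9.67% lower, so 2 lower genes of 11 is near that share.

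Genes of fatty acid desaturation and sterol synthesis were lower. Scd2, a desaturase that makes monounsaturated fatty acids, had the smallest p of all 12329 genes: 553, 479.6 and 466 CPM in AOS0 and 229, 251 and 314 CPM in AOS10, or 499 ± 46.7 CPM in AOS0 and 265 ± 44.1 CPM in AOS10 (SD, n = 3) (log2 fold change -0.92 with SE 0.13, edgeR adjusted p = 0.119; gene ID 20250, GRCm38.p6 chromosome 19, 44293676 to 44306864). Every AOS10 library lay below every AOS0 library. Scd1, its paralog, was at 4.99, 2.62 and 3.11 CPM in AOS0 and 0.921, 1.43 and 1.27 CPM in AOS10 (log2 fold change -1.57 with SE 0.36, edgeR adjusted p = 0.224). Mboat1, an acyltransferase that loads monounsaturated fatty acids onto lysophospholipids, was at 24.5, 23.1 and 24.7 CPM in AOS0 and 13.9, 11.9 and 15.7 CPM in AOS10. Of 16 tested genes of fatty acid synthesis 5 were lower and 2 higher without overlap, against 9.67% and 11.0% of all tested genes (median -0.099, and 0.0015 without AOS0 replicate 2), the lower ones being both desaturases with Acly (-0.21), which makes cytosolic acetyl-CoA, Acaca (-0.23), which makes malonyl-CoA, and Elovl5 (-0.26), an elongase.

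In the cholesterol synthesis list 24 of 25 tested genes were below 0, with a median log2 fold change of -0.19, and 7 were lower and 0 higher without overlap. Over all tested genes 52.2% were below 0 and 9.67% lower without overlap. Insig1, the sterol-responsive brake on the pathway, was at 78.2, 91.8 and 109.5 CPM in AOS0 and 52.8, 52.2 and 68.9 CPM in AOS10 (log2 fold change -0.68 with SE 0.19, edgeR adjusted p = 0.449). Stard4, a carrier of sterols between membranes, was at 194, 186 and 208 CPM in AOS0 and 134, 163 and 172 CPM in AOS10. The groups were apart in both. Srebf2, the factor that drives this program, overlapped (-0.084). The list's level relative to the AOS0 mean was -0.30, -0.30 and -0.028 in the AOS10 libraries, so replicate 3 stood near AOS0. Without it the median was -0.30 and 22 of 25 genes were lower without overlap. Without AOS0 replicate 1, 15 were. Fewer libraries leave more genes of any kind without overlap, so neither count can be set against the 9.67%.

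Most genes of lipid uptake and burning were above 0, with small differences. In the list of lipid absorption and chylomicron assembly, 20 of 26 tested genes were above 0 (median 0.22), 14 were higher without overlap and 1 lower (Apoc3, -0.24). The shares over all tested genes were 47.8% above 0, 11.0% higher and 9.67% lower without overlap. Mogat2, which rebuilds diacylglycerol in the enterocyte, was at 371, 404 and 425 CPM in AOS0 and 566, 495 and 509.5 CPM in AOS10, Dgat2, which completes triacylglycerol, at 95.2, 118 and 115 CPM in AOS0 and 155, 129.7 and 139.7 CPM in AOS10, and Plin2, a lipid droplet coat protein, at 92.0, 87.8 and 84.0 CPM in AOS0 and 108, 98.8 and 99.7 CPM in AOS10. Pla2g12b had a log2 fold change of 0.28 and Mttp, which loads lipid onto apolipoprotein B, of 0.27. Apoa4, a chylomicron apolipoprotein, overlapped widely: 1308, 2538 and 1619 CPM in AOS0 and 1738, 1379.7 and 1317 CPM in AOS10.

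Among 28 targets of PPAR-alpha and genes of fatty acid oxidation, 23 were above 0 (median 0.11), with 9 higher and 0 lower without overlap (47.8%, 11.0% and 9.67% of all tested genes). Acadl, a dehydrogenase of long-chain acyl-CoA, was at 239, 224 and 242 CPM in AOS0 and 309.8, 308 and 303 CPM in AOS10, and Acot1, an acyl-CoA thioesterase, at 4.79, 4.26 and 3.25 CPM in AOS0 and 7.19, 5.77 and 6.95 CPM in AOS10. The groups were apart in both.

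Most brush border and transport genes were above 0, with small differences. Over all tested genes 47.8% were above 0, and without overlap 11.0% were higher and 9.67% lower. Of 25 brush border and digestive enzyme genes 19 were above 0 (median 0.13; 9 higher and 1 lower without overlap). Anpep, the aminopeptidase N of the brush border, was at 4652, 5331 and 6046 CPM in AOS0 and 8294, 7888 and 6698 CPM in AOS10, and Ace, angiotensin-converting enzyme, at 292, 307 and 311 CPM in AOS0 and 534, 512 and 390.1 CPM in AOS10. The motor genes Myo7b and Myo1a had log2 fold changes of 0.31 and 0.23, while Mep1a, a meprin, was the member lower without overlap (-0.54). Of 22 sugar, amino acid and peptide transporters 17 were above 0 (median 0.20; 8 higher and 2 lower without overlap). Slc3a2, the heavy chain of amino acid exchangers, was at 265, 277 and 264 CPM in AOS0 and 325, 325 and 320.3 CPM in AOS10, and Slc36a1, a proton-coupled amino acid carrier, had a log2 fold change of 0.42. The lower ones were Slc28a2, a nucleoside carrier at 6.35, 13.5 and 6.58 CPM in AOS0 and 2.95, 1.75 and 3.14 CPM in AOS10, and Slc6a14, an amino acid carrier at 1.17, 2.03 and 12.1 CPM in AOS0 and 0.368, 0.518 and 0.735 CPM in AOS10, whose log2 fold change of -3.21 was -1.56 without AOS0 replicate 3. Of 17 ABC transporters 7 were higher and 3 lower without overlap (median 0.096); besides Tap1 and Tap2, Abca1, which exports cholesterol, had 0.64. Of 24 intestinal transcription factors 4 were higher and 1 lower without overlap (Ehf, -0.18; median 0.049), which is near the shares over all genes, with Gata4, a factor of the proximal intestine, at 180.3, 195 and 187 CPM in AOS0 and 246, 229.9 and 238 CPM in AOS10. Gata5, its relative, had a log2 fold change of 0.34.

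Enteroendocrine hormones and granins stood higher in AOS10, with no member past the threshold. Of 21 tested members of a list of 23, 19 were above 0, with a median log2 fold change of 0.44; 8 were higher and 0 lower without overlap, and 8 were higher at an unadjusted p under 0.05. Over all tested genes 47.8% were above 0, 11.0% higher and 9.67% lower without overlap, and 3.20% higher at that p. Chga, a granin of the secretory granule, was at 25.9, 30.7 and 35.1 CPM in AOS0 and 48.0, 40.1 and 43.2 CPM in AOS10 (log2 fold change 0.52 with SE 0.13, edgeR adjusted p = 0.316). Chgb, another granin, was at 21.0, 26.2 and 26.7 CPM in AOS0 and 43.1, 32.9 and 34.6 CPM in AOS10. Cck, the hormone cholecystokinin, was at 5.70, 9.12 and 13.6 CPM in AOS0 and 17.0, 15.2 and 15.9 CPM in AOS10, and Ghrl, ghrelin, at 2.20, 2.03 and 3.70 CPM in AOS0 and 4.30, 4.28 and 5.21 CPM in AOS10. In all 4 genes the groups were apart. Gcg, the precursor of glucagon-like peptides, had a log2 fold change of 0.53, Neurog3, the factor that commits cells to this lineage, of 0.57, and Tac1, a tachykinin, of -0.38. AOS0 replicate 1 was the lowest library, at -0.29 on the scale of list levels; without it the median was 0.30 and 4 members had an unadjusted p under 0.05. Without AOS0 replicate 3, 13 members were higher without overlap, but with fewer libraries the 11.0% is no measure for that count. In bulk tissue fewer or more cells of a type and less or more RNA per cell cannot be told apart.

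Of the Hox genes, which pattern the body axis, Hoxb6, Hoxb7, Hoxb8 and Hoxb9 were lower in AOS10 without overlap, and none of them passed the threshold. Hoxb9 was at 8.42, 7.67 and 17.3 CPM in AOS0 and 0.614, 0.778 and 0.401 CPM in AOS10 (log2 fold change -4.19 with SE 0.75, edgeR adjusted p = 0.119), and Hoxb6 at 3.69, 2.69 and 6.51 CPM in AOS0 and 0.491, 0.454 and 0.200 CPM in AOS10 (log2 fold change -3.45 with SE 0.79, edgeR adjusted p = 0.224). Hoxb7 was at 1.94, 1.31 and 2.22 CPM in AOS0 and 0.246, 0.389 and 0.200 CPM in AOS10 and Hoxb8 at 1.75, 2.75 and 4.59 CPM in AOS0 and 0.368, 0.389 and 0.267 CPM in AOS10. These 4 were the only Hox genes of 9 tested whose groups did not overlap, where 9.67% of all tested genes were lower without overlap; the median of the Hox cluster list was -0.91, and it ranged from -0.44 without AOS0 replicate 3 to -2.03 without AOS10 replicate 2. The levels were low, under 20 CPM in every library. The busulfan libraries were also low: Hoxb9 was at 0.878, 1.91 and 0.606 CPM in B+A0 and 0.364, 5.31 and 1.41 CPM in B+A10, so that the 3 AOS0 libraries stood above all 9 others. Lists of proximal and distal intestine had medians of 0.053 and 0.053, and the part of sampling position in the Hox difference was not tested.

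Further genes that the naming rule picked fall in no single group. Banp, a nuclear matrix-associated DNA-binding protein, was at 12.7, 12.3 and 9.76 CPM in AOS0 and 22.9, 22.7 and 22.6 CPM in AOS10, or 11.6 ± 1.60 CPM in AOS0 and 22.7 ± 0.170 CPM in AOS10 (SD, n = 3) (log2 fold change 0.97 with SE 0.17, edgeR adjusted p = 0.119). The AOS10 libraries lay closer together than the AOS0 libraries. Pop4, a subunit of the RNase that trims transfer RNA, was at 30.9, 31.3 and 31.4 CPM in AOS0 and 20.8, 19.2 and 19.9 CPM in AOS10, and Fgfbp1, which releases fibroblast growth factors from the matrix, at 94.0, 78.3 and 83.1 CPM in AOS0 and 62.6, 66.4 and 54.0 CPM in AOS10. The bacterial lipoprotein receptors were both lower: Tlr1 was at 22.9, 18.9 and 21.1 CPM in AOS0 and 12.8, 15.5 and 14.4 CPM in AOS10. Tlr2, its partner, was at 9.91, 7.48 and 11.9 CPM in AOS0 and 5.47, 4.92 and 6.35 CPM in AOS10. Ugcg, which makes glucosylceramide, was at 56.2, 51.3 and 55.6 CPM in AOS0 and 37.3, 44.3 and 40.6 CPM in AOS10. Ada, adenosine deaminase, was at 36.3, 71.5 and 54.6 CPM in AOS0 and 23.6, 15.2 and 16.8 CPM in AOS10, Clca4a, a chloride channel regulator, at 35.9, 30.8 and 36.9 CPM in AOS0 and 13.8, 17.6 and 10.4 CPM in AOS10, and Pmp22, a membrane protein of junctions and myelin, at 55.2, 30.8 and 52.1 CPM in AOS0 and 29.1, 25.7 and 20.6 CPM in AOS10; all were lower without overlap. Slc34a3, a phosphate carrier, was at 2.01, 3.08 and 5.47 CPM in AOS0 and 14.8, 16.3 and 5.61 CPM in AOS10, where AOS0 replicate 3 and AOS10 replicate 3 nearly met.

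Some of the largest fold changes rested on 1 library. St3gal4, a sialyltransferase, was at 0.777, 0.787 and 0.888 CPM in AOS0 and 7.86, 8.55 and 291 CPM in AOS10; its log2 fold change of 6.96 was 3.32 without AOS10 replicate 3, and then passed (adjusted p = 0.00799). Rsph1, a cilium protein, was at 0.777, 0.393 and 0.814 CPM in AOS0 and 1.72, 27.9 and 2.20 CPM in AOS10, with a log2 fold change of 3.99 that was 1.56 without AOS10 replicate 2. Sprr2a1, a cornified envelope protein with near-identical copies, was at 156, 196 and 78.1 CPM in AOS0 and 255, 313 and 996 CPM in AOS10. Cacna1f, a calcium channel, was at 3.63, 26.8 and 0.296 CPM in AOS0 and 0, 0.0648 and 0.0668 CPM in AOS10, and its log2 fold change of -7.67 was -5.31 without AOS0 replicate 2. Without AOS10 replicate 3 the log2 fold change of Sprr2a1 went from 1.86 to 0.99.

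**Figure D4:**
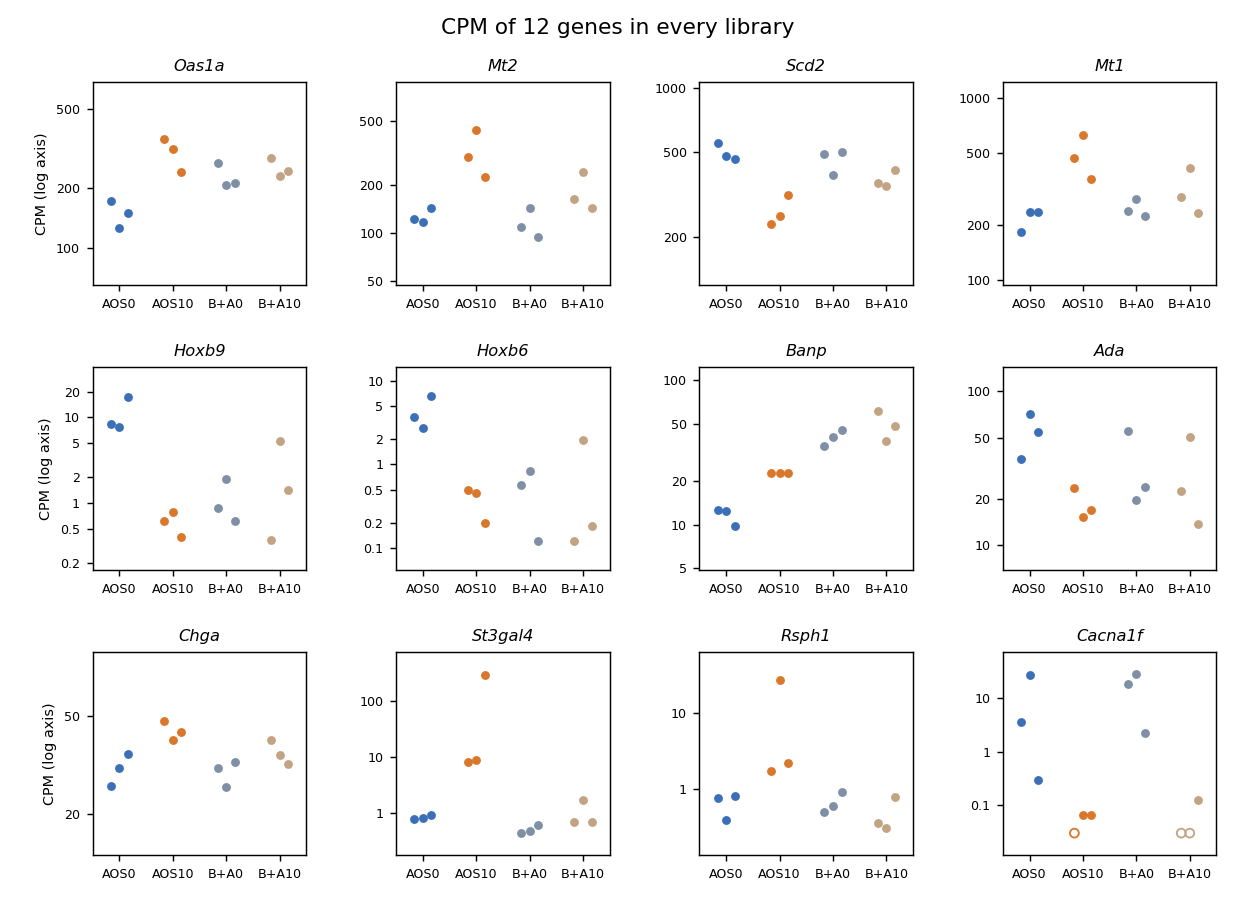
Each panel shows the CPM of 1 gene on a log axis in all 12 libraries, by group, with replicates 1, 2 and 3 from left to right; open circles mark libraries with no count, drawn at a fixed low position. The AOS0 and AOS10 points do not overlap in any panel, the log2 fold change of Oas1a is 1.02 without and 0.13 with busulfan, and 1 point sets the height of St3gal4 and Rsph1.

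Cell cycle, stem, Paneth, goblet and tuft cell markers overlapped between the groups for most genes. So did most genes of any kind, since 20.7% of all tested genes were apart. Of 30 cell cycle genes 26 were below 0, against 52.2% of all tested genes (median -0.11). Only 1 was lower without overlap (9.67% of all), Ccnb1, a mitotic cyclin, at 81.5, 77.2 and 66.8 CPM in AOS0 and 62.8, 56.8 and 55.6 CPM in AOS10. Without AOS0 replicate 3, 21 were, but with fewer libraries more genes of any kind are, and the 9.67% no longer holds. Without AOS0 replicate 1 only 18 of 30 were below 0. Ccna2, Top2a and Cdc20 had log2 fold changes of -0.29, -0.29 and -0.19. Mki67, a marker of dividing cells, was at 208, 204 and 137 CPM in AOS0 and 153, 168 and 140.1 CPM in AOS10, with overlap. Lgr5, which marks stem cells, was at 16.7, 14.9 and 8.36 CPM in AOS0 and 14.0, 13.9 and 9.62 CPM in AOS10. In the crypt stem cell list 11 of 16 tested genes were above 0 (47.8% of all tested genes), with a median of 0.089. Paneth cells, which make lysozyme and defensins, had a list median of -0.018 with replicate 3 low in both groups: Lyz1 was at 2149.7, 2184 and 1349 CPM in AOS0 and 2755, 1749 and 897 CPM in AOS10. The goblet cell list had a median of 0.039, and Dclk1, a tuft cell marker, was at 4.08, 4.13 and 3.55 CPM in AOS0 and 2.21, 1.62 and 4.21 CPM in AOS10.

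Markers of immune cells were mostly below 0. Of 20 tested T and natural killer (NK) cell genes of a list of 25, 19 were below 0, against 52.2% of all tested genes (median -0.35). None separated the groups, where 11.0% of all tested genes were higher and 9.67% lower without overlap. Their summed level was 249.98 to 425 CPM in AOS0 and 237 to 322 CPM in AOS10. Lck, a T cell kinase, Gzma, a granzyme, and Cd8a, the co-receptor of cytotoxic T cells, had log2 fold changes of -0.63, -0.64 and -0.47. Cd3e, part of the T cell receptor complex, was at 7.90, 5.38 and 9.32 CPM in AOS0 and 6.94, 3.43 and 5.21 CPM in AOS10. The list's median was -0.16 without AOS0 replicate 1. Without AOS0 replicate 2, 11 of its 21 tested genes were lower without overlap, though fewer libraries leave more genes of any kind so. Of 8 tested macrophage and monocyte genes 7 were below 0, with a summed level of 138 to 175 CPM in AOS0 and 143 to 148 CPM in AOS10. Of these 8, the lysosomal marker Cd68 (-0.89) and the integrin Itgax (-0.42) were lower without overlap (9.67% of all tested genes). Most other members of that list, among them Adgre1 and C1qa, had too few counts to be tested. Of 6 tested B and plasma cell genes 4 were below 0, with 145 to 168 CPM in AOS0 and 132 to 159.9 CPM in AOS10. Jchain, which joins antibody units in plasma cells, was at 4.47, 2.89 and 10.4 CPM in AOS0 and 1.66, 2.46 and 4.21 CPM in AOS10. The part of these cells in the interferon difference was not tested.

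The same AOS difference could be read in the mice given busulfan, from 6 libraries that share none with the comparison above. Across all 12329 genes the log2 fold changes of the 2 comparisons had a Pearson r of -0.016 and a Spearman rho of 0.066, given as a description, since genes are not independent. Of 768 genes with an unadjusted p under 0.05 in AOS10 against AOS0, 102 (13.3%) also had one in B+A10 against B+A0, 8.43% of the 1210 there, and 67 of them had the same sign. The difference of the 2 AOS effects, tested as an interaction in edgeR, called 0 genes (0%; smallest adjusted p 0.499), with 844 at an unadjusted p under 0.05 (6.85%); DESeq2 called 17.

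No interferon-stimulated gene separated B+A10 from B+A0, though most stayed above 0. In B+A10 against B+A0, 28 of 34 were above 0 (6391 of all 12329 tested genes), with a median log2 fold change of 0.13. Without overlap 0 of 34 were higher and 0 lower, where 596 of all 12329 tested genes were higher and 667 lower. The median of the interaction was -0.59. At an unadjusted p under 0.05, 12 of 34 had a negative interaction and 0 a positive one, where 2.65% of all genes had the first and 4.19% the second; none passed after adjustment. Oas1a was at 269, 208 and 213 CPM in B+A0 and 282, 231 and 244 CPM in B+A10 (edgeR interaction adjusted p = 0.499). All 3 B+A0 libraries thus lay above all 3 AOS0 libraries for Oas1a. The list's level relative to AOS0 was 0.87, 0.088 and -0.042 in B+A0 and 0.29, 0.40 and 0.71 in B+A10.

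Other groups kept their direction or reversed it. Enteroendocrine genes had medians of 0.44 and 0.33 without and with busulfan, each with 19 of 21 above 0, and cholesterol synthesis genes -0.19 and -0.20. Insig1 had -0.68 and -0.20. Cacna1f had -7.67 and -8.35. Banp was at 34.8, 40.5 and 44.9 CPM in B+A0 and 60.9, 37.6 and 48.4 CPM in B+A10, above the AOS0 and AOS10 libraries in all 6. T and NK cell genes had -0.35 and 1.16, and Hox genes -0.91 and 0.67. At an unadjusted edgeR p under 0.05, 17 of 20 T and NK cell genes and 4 of 9 Hox genes had a positive interaction. In both lists 0 had a negative one, where 4.19% of all tested genes had a positive and 2.65% a negative one. Scd2 had -0.92 and -0.30, Scd1 -1.57 and 0.67, and Mt2 1.33 and 0.65; none of these interactions passed after adjustment by edgeR. DESeq2 called the interactions of Scd1, Hoxb8, Hoxb9, Lgals9 and Ugcg among its 17.

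**Figure D5:**
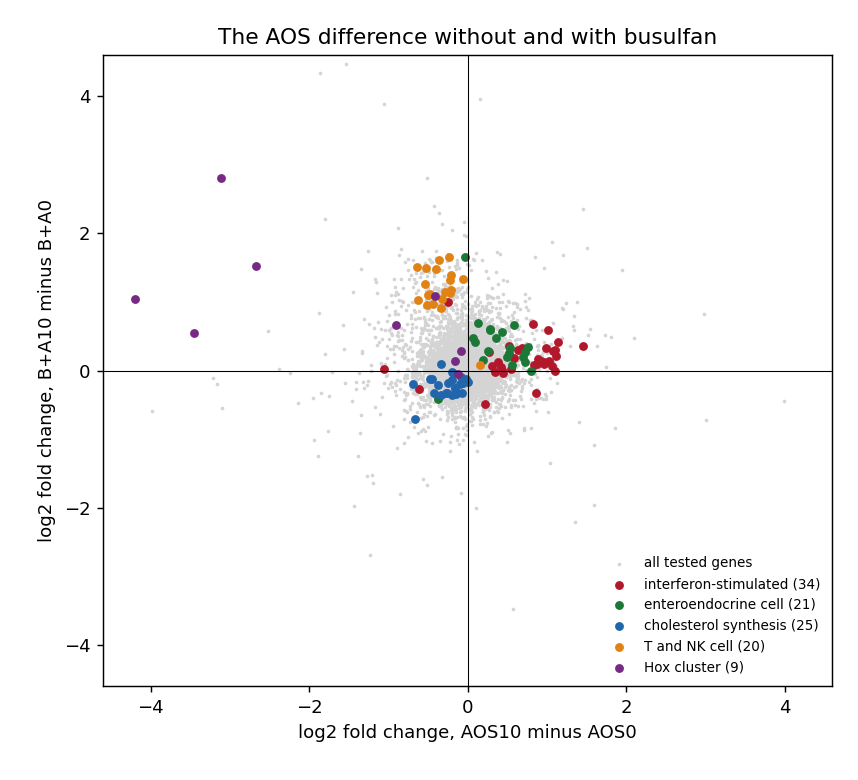
Each point is a tested gene, placed by its log2 fold change of AOS10 against AOS0 (x) and of B+A10 against B+A0 (y); colours mark 5 lists, and 5 genes lie outside the axes. Interferon-stimulated genes (red) lie to the right with y near 0 (median 0.83 against 0.13), T and NK cell genes (orange) and Hox genes (purple) lie mostly in the upper left (medians -0.35 and 1.16, and -0.91 and 0.67), and enteroendocrine genes (green) mostly in the upper right.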

How the data were processed

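A single deposited table holds RNA-seq values of all 12 libraries of mouse small intestine, 6 of which, AOS0 and AOS10, are described here. Build mm10 is named in the submitters' processing notes; the aligner, the counting tool and its use of strand were not given in the sources used here. Reads of genes that overlap, or lie antisense to each other, may therefore be mixed. Expected counts, deposited under the name read counts per the file headers, are not normalized; 8.9% to 9.19% of the 6 libraries' values were not whole (tolerance 1e-06), and all were rounded. A second deposited column per library was read as FPKM, from its relation to the counts, since the file header names no unit; it serves only an alternative. Averages of groups were not used.

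Genes kept by filterByExpr (12329) were scaled by TMM and tested with edgeR 4.0.16 (R 4.3.3) in 1 quasi-likelihood model over all 12 libraries, contrast AOS10 minus AOS0, Benjamini-Hochberg adjustment, threshold 0.05. The interaction contrast was B+A10 minus B+A0 less AOS10 minus AOS0. The SE was derived from the log2 fold change and the F statistic. CPM are TMM-scaled. No 2 replicates agreed within counting noise (chi-square over its degrees of freedom, 8.28 to 21.1). List levels use log2(CPM + 0.5). The test was checked on simulated counts.

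Named genes are, among tested genes with groups that do not overlap, the 12 with the smallest p per direction (mean of at least 1 CPM), the 8 with the largest fold change per direction (at least 5 CPM), up to 4 members per described list with the smallest p, and 10 fixed markers; unnamed genes and antigen receptor segments are excluded. Some genes that the rule picks are not reported here. Other members were named as examples, after their values were seen. Members and lists were chosen with earlier results of these data known. Of 59 lists 58 had a tested gene. Coordinates and promoters are from RefSeq GRCm38.p6, matched by gene ID (12282 genes). Alternatives tried included the 2 groups alone, other filters on low counts, DESeq2 1.42.0 and its size factors under edgeR, a replicate block, leaving out each library, limma 3.58.1 on log2(FPKM + 1) and, chosen after seeing the data, thinned counts. Figures were drawn with matplotlib 3.10.9.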

Additional observations from a re-analysis of the deposited data

How the results depend on the processing

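edgeR called 0 genes for AOS10 against AOS0 over all 12 libraries (768 at an unadjusted p under 0.05). The count was 63 with DESeq2, 62 with only the AOS0 and AOS10 libraries and 8 with no filter on low counts. It was 0 with DESeq2 size factors, both other filters, limma on log2(FPKM + 1) and thinned counts, and 0 to 13 when 1 library was left out, 13 without AOS10 replicate 3. For the difference between the AOS effects with and without busulfan the count was 0, 17 with DESeq2, and 0 to 1 when 1 library was left out. The cause of these differences was not tested.

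With the replicate number as a block, 15 genes were called, and 45 with the block and only the AOS0 and AOS10 libraries. Same-numbered AOS0 and AOS10 libraries deviated with correlations of 0.014, 0.023 and 0.066, and AOS0 replicate 1 correlated best with AOS10 replicate 2 (0.074), so the numbers were not taken to pair the samples.

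Leaving out 1 library in turn moved some small log2 fold changes across 0, with ranges of -1.07 to 1.16 for Iigp1, -0.26 to 0.49 for Cxcl10, -0.60 to 0.13 for Ifi27l2b, -0.038 to 0.095 for Ifnar1, -0.49 to 0.019 for Apoa4, -0.34 to 0.10 for Lgr5, -0.52 to 0.25 for Lyz1, -0.010 to 0.17 for Muc2 and -0.022 to 0.15 for Alpi.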

Other observations

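DESeq2 called 47 genes higher in AOS10, of which 12 are in the interferon-stimulated list and 35 are not. The genes named here were picked from those calls after their values were seen. Rnf213, a large ubiquitin ligase, was at 517, 445 and 446 CPM in AOS0 and 878, 803 and 709 CPM in AOS10, and Parp12, an antiviral ADP-ribosyltransferase, at 128, 96.4 and 115 CPM in AOS0 and 206, 186 and 160.0 CPM in AOS10. Herc6, the ligase that attaches Isg15 in the mouse, was at 25.1, 20.3 and 21.6 CPM in AOS0 and 39.8, 57.5 and 48.6 CPM in AOS10, and Ube2l6, the conjugating enzyme of the same reaction, at 62.1, 43.6 and 56.4 CPM in AOS0 and 98.9, 85.5 and 85.2 CPM in AOS10. Slfn5, a Schlafen protein, was at 20.9, 15.1 and 19.0 CPM in AOS0 and 38.1, 37.0 and 35.2 CPM in AOS10. Ly6e, a membrane protein that affects virus entry, was at 781, 392 and 503 CPM in AOS0 and 1267, 1005 and 845 CPM in AOS10. All 6 are known to be interferon-induced, none overlapped between the groups, and none passed by edgeR over all 12 libraries.

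Other genes called higher by DESeq2 belong elsewhere. Slc6a4, the serotonin transporter of the epithelium, was at 117, 119.5 and 125 CPM in AOS0 and 160.0, 158 and 155 CPM in AOS10. Nid2, a basement membrane protein, was at 0.518, 0.787 and 0.888 CPM in AOS0 and 7.06, 5.70 and 4.88 CPM in AOS10, and its log2 fold change of 3.00 stood against -0.72 in B+A10 against B+A0 (interaction called by DESeq2, not by edgeR).

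Stress-related lists outside the report differed in direction. Over all tested genes 47.8% were above 0, and without overlap 11.0% were higher and 9.67% lower. Of 24 tested p53 targets 8 were above 0 (median -0.032), with 2 higher and 3 lower without overlap. Of 22 tested genes of the integrated stress response, which restrains translation when amino acids or folding fail, 20 were above 0 (median 0.16), with 6 higher and 1 lower without overlap. Without AOS10 replicate 3, 12 were higher, a count from fewer libraries to which the 11.0% does not apply. Chac1, which degrades glutathione, was at 1.62, 1.84 and 2.00 CPM in AOS0 and 5.59, 3.05 and 3.47 CPM in AOS10, and Atf5, a transcription factor of this response, at 24.5, 20.5 and 23.4 CPM in AOS0 and 35.1, 37.4 and 26.2 CPM in AOS10. Vldlr, a lipoprotein receptor, was the lower one (-0.61). Of 14 tested glucocorticoid response genes 11 were above 0 (median 0.25), led by Mt2 and Mt1, which the zinc list holds too. Of the others with the smallest p, Ddit4 had a log2 fold change of 0.35 and Klf9 of -0.27, each without overlap.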
